A study of Mus musculus with 6 samples.

Results

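The C/EBP and other granulocyte transcription factors were read in bone marrow as every probe set to which the platform annotation gives exactly 1 gene symbol, that symbol being Cebpa, Cebpb, Cebpd, Cebpe, Cebpg, Gfi1, Spi1, Runx1 or Irf8. These were 18 of the 45037 probe sets tested, for 8 of the 9 genes, out of 18193 genes in all. No probe set carried the symbol Cebpe, which was therefore not analysed here. Marrow came from adult female (AKR/J x FVB/NJ)F1 mice, called AKR F1 here, and adult female (DBA/2J x FVB/NJ)F1 mice, called DBA F1 here, with 3 Affymetrix arrays each; an age in weeks or months is not given. Both crosses share the FVB/NJ parent, so the groups differ in the other parental genome. The labels name no transgene and no treatment of the mice other than anesthesia, and the stated purpose was to find expression that differs at baseline between the crosses. The labels do not tie each array to an animal of its own, so the p-values rest on the spread among arrays, which may be partly or wholly technical.

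C/EBP proteins are basic leucine zipper factors that bind DNA as dimers. C/EBPα is needed for the step from myeloid progenitors to granulocyte-monocyte progenitors, C/EBPβ serves demand-driven granulocyte production, and C/EBPε drives late granule genes. PU.1 (Spi1) and RUNX1 open the myeloid program, GFI1 represses monocyte genes in granulocyte precursors, and IRF8 directs progenitors towards monocytes and dendritic cells and away from granulocytes.

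Of the promoters, 9 windows covering 6 of the 9 genes were in the RefSeq promoter table (GRCm38.p6), and Cebpd, Cebpe and Spi1 were not among them. The windows of the 4 genes with a probe set past the test are shown, each with the 250 bases before an annotated start, on the strand of the gene and 5′ to 3′. Of the Irf8 windows the upstream one is shown. Capitals mark matches on either strand to any of 7 searched motifs. The TATA box was searched as TATAAA. The C/EBP core was searched as TTGCG and the C/EBP palindrome as TTNNGNAA. For the ETS core of PU.1 the letters were GAGGAA. For RUNX factors they were TGTGGT, and for GFI1 they were AAATCA. The IRF element was a GAAA repeated after a gap of 2 bases.
Cebpa, chr7:35119043-35119292, + strand: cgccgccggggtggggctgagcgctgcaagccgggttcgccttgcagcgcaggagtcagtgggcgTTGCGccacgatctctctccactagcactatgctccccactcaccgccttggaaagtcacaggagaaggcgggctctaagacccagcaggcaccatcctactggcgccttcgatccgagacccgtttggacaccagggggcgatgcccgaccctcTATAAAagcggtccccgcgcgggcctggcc
Cebpb, chr2:167688665-167688914, + strand: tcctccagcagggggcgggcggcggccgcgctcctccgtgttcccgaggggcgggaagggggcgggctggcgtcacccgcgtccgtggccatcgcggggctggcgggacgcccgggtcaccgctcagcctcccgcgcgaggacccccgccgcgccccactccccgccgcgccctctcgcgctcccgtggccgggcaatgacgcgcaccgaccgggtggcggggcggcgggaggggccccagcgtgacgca
Irf8, chr8:120736108-120736357, + strand: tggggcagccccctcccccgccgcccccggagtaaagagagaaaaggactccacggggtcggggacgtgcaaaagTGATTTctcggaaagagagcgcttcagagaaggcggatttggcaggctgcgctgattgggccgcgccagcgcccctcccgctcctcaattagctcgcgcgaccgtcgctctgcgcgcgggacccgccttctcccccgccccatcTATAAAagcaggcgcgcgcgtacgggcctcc
Runx1 upstream start, chr16:92826075-92826324, - strand: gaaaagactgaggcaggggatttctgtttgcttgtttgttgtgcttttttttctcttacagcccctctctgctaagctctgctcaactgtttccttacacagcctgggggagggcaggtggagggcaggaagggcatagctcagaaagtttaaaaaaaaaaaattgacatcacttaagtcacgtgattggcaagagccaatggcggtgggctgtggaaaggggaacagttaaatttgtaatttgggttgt
Runx1 downstream start, chr16:92697330-92697579, - strand: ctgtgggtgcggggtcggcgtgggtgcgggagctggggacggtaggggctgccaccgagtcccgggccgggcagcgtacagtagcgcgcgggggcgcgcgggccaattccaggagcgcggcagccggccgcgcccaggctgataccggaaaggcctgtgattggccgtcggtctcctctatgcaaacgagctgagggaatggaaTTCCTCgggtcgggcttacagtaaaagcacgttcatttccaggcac

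The Cebpa window held TATAAA at position -30 and TTGCG at -185, counted from the annotated start to the first base of the match. The Irf8 window held TATAAA at -31 and AAATCA at -175, the second on the opposite strand, where the printed letters read TGATTT. Among all 32851 windows, 12.4% held TATAAA, 14.5% TTGCG and 12.4% AAATCA. The downstream Runx1 window held GAGGAA at -46 on the opposite strand (printed as TTCCTC), a motif found in 23.3% of windows, and the upstream one held none of the 7. The Cebpb window held no match and was 81.6% G and C, above 99.3% of all windows (median 52.4%). RUNX1 is known to be made from an upstream and a downstream promoter, and both starts are in the table. The C/EBP palindrome, the RUNX core and the IRF element, which have no match in the 5 windows shown, occurred in 36.8%, 14.0% and 3.0% of all windows. A match is a description of letters and not a binding site, and the reference is C57BL/6J, none of the parental strains here.

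Of the 18 member probe sets, 4 passed the test, 2 higher in AKR F1 (that of Cebpa and 1 of Cebpb) and 2 lower there (1 of Runx1 and 1 of Irf8), while 14 missed the threshold. The test was limma's linear model on the deposited log2 values, AKR F1 minus DBA F1, with Benjamini-Hochberg adjustment over all 45037 probe sets and a threshold of 0.05. The share of 22.2% stands beside 12.3% of all probe sets, 5.57% higher and 6.73% lower. At 11 of the 18 the groups did not overlap, 9 with every AKR F1 array above every DBA F1 array and 2 with every AKR F1 array below. Groups did not overlap at 33.0% of all probe sets. Read from the brightest probe set of each gene, 1 of the 8 genes passed, Cebpa, against 15.2% of all genes, and 4 of the 8 did not overlap, against 36.7% of all genes. The median difference was 0.13 over the 18 probe sets and 0.03 over all probe sets.

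**Figure D1:**
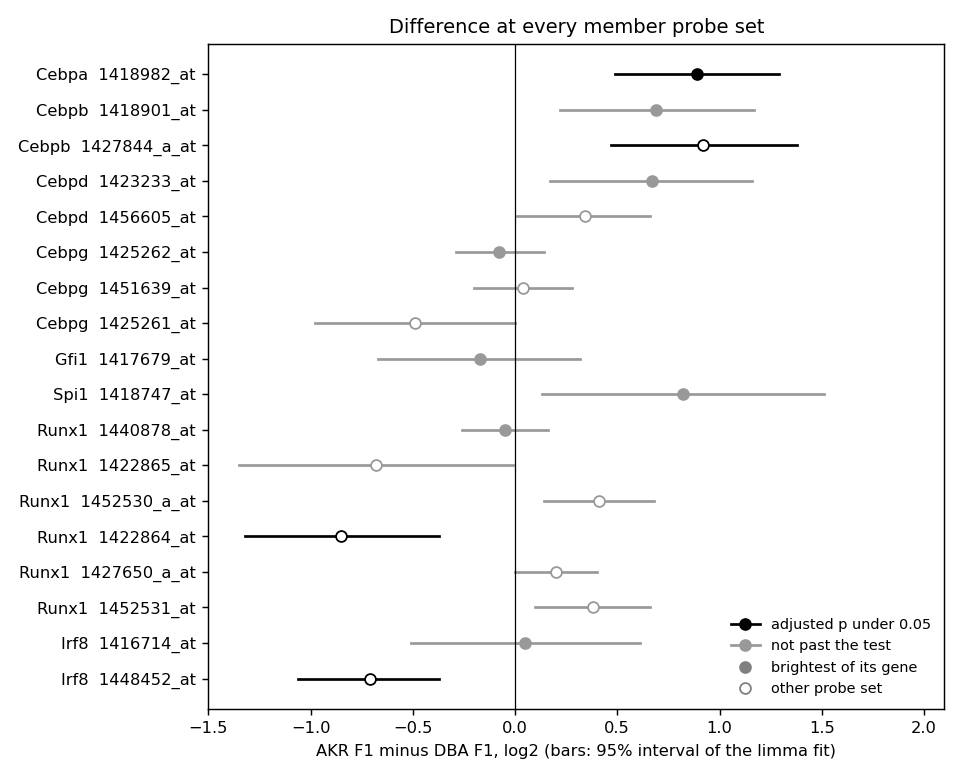
Log2 difference between AKR F1 and DBA F1 (the first minus the second) at the 18 member probe sets, with the 95% interval of the limma fit as bars. Black marks an adjusted p under 0.05, filled points are the brightest probe set of a gene, and Runx1 and Irf8 have probe sets on either side of 0.

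Several measures of the arrays moved with the groups. The mean of 10 skeletal muscle markers was 6.88 to 8.19 in AKR F1 and 8.97 to 11.77 in DBA F1, with the AKR F1 mean below the DBA F1 mean for all 10 and 8 of them past the test. Myh4, a fast muscle myosin, averaged 7.03 in AKR F1 and 10.70 in DBA F1. The 3' to 5' index, the mean 3' minus 5' log2 signal of actin, Gapdh and 4 poly-A spikes, was 1.66 to 2.22 in AKR F1 and 1.44 to 1.54 in DBA F1. The 18 hybridization control probe sets averaged 10.08 to 10.28 in AKR F1 and 10.62 to 11.03 in DBA F1. With the index, the hybridization controls or the muscle mean as a covariate, 0 of the 18 member probe sets passed limma's test. Of all 45037 probe sets 53, 10 and 61 passed in these fits, against 5541 with no covariate. Members with an unadjusted limma p under 0.05 numbered 3, 4 and 2, against 12 with no covariate. That share over all probe sets was not computed here. Genes of marrow granulocytes were high in both groups. S100a8, which encodes a calprotectin subunit of neutrophils, averaged 14.36 ± 0.01 in AKR F1 and 14.39 ± 0.03 in DBA F1 (SD, n = 3 each) in a table that reaches 14.88. Array medians lay between 5.14 and 5.19.

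Cebpa, the C/EBP of early granulocyte-monocyte commitment, had the smallest adjusted p of the member probe sets and was higher in AKR F1. It was at 9.52, 9.40 and 9.34 in AKR F1, against 8.86, 8.59 and 8.13 in DBA F1 (probe set 1418982_at). All AKR F1 arrays lay above all DBA F1 arrays, and the DBA F1 arrays were spread more widely (SD 0.37, against 0.09 in AKR F1). The difference was 0.89 (SE 0.17, 95% interval 0.49 to 1.29), which is 1.86-fold, with adjusted p = 0.016 in limma over probe sets and 0.014 over genes. It was 0.69 to 1.06 when each array was left out in turn. The call was lost without AKR F1 replicate 2 (adjusted p = 0.061 in limma) or AKR F1 replicate 3 (adjusted p = 0.058), where the difference was 0.90 and 0.93. With the index, the hybridization controls or the muscle mean as a covariate it was 1.02, 0.79 and 1.20, with adjusted p from 0.16 to 0.57 in limma. In a sample of whole marrow, fewer cells of a type and less RNA per cell cannot be told apart, here or in any result below.

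Cebpb, which encodes the C/EBP of demand-driven granulocyte production and of macrophages, had 2 probe sets. The brightest (1418901_at) was at 9.35, 9.68 and 10.20 in AKR F1, against 9.02, 9.26 and 8.87 in DBA F1. The other (1427844_a_at) was at 7.73, 7.82 and 8.49 in AKR F1, against 7.14, 7.25 and 6.89 in DBA F1. In neither did the groups overlap, AKR F1 replicate 3 was the highest array in both, and the brightest came closest to overlap, with 9.35 in AKR F1 replicate 1 above 9.26 in DBA F1 replicate 2. The other probe set passed the test with a difference of 0.92 (SE 0.20, 95% interval 0.47 to 1.38, adjusted p = 0.023 in limma). The brightest, at 0.69 (SE 0.21), did not pass (adjusted p = 0.063 over probe sets and 0.052 over genes in limma). The call of the other probe set was lost without AKR F1 replicate 2, DBA F1 replicate 2 or DBA F1 replicate 3, with differences from 0.82 to 1.02. The brightest probe set came past the test without AKR F1 replicate 1, at 0.89 (adjusted p = 0.030 in limma). The brightest differed by 0.18 with the index and 0.33 with the muscle mean as a covariate, and the other by 0.61 and 0.62. With the hybridization controls they differed by 1.49 and 1.53, and no fit with a covariate passed at either. Of 10 monocyte and macrophage markers 3 were higher in AKR F1 and 1 was lower, with means of 9.66 to 9.86 in AKR F1 and 9.47 to 9.71 in DBA F1, at their brightest probe set. The 3 were the complement genes C1qa, C1qb and C1qc, and the 1 was F13a1, at -0.57 (adjusted p = 0.0096 in limma). The 2 dimmer probe sets of C1qb differed by 0.17 and 0.29 without passing. Of 3 dimmer probe sets of Ccr2, the chemokine receptor gene in that list, 1 was lower in AKR F1, at -1.74 (adjusted p = 0.017 in limma). The other dimmer ones differed by -0.01 and 0.25 and the brightest by -0.50, none past the test. The part of these markers in the Cebpb result was not tested.

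Cebpd, whose product rises early in inflammation, did not pass the test at either of its 2 probe sets. Its brightest probe set (1423233_at) was at 10.44, 10.24 and 10.12 in AKR F1, against 9.97, 9.77 and 9.06 in DBA F1. The groups did not overlap, but DBA F1 replicate 3 lay well below the other DBA F1 arrays. The difference was 0.67 (SE 0.22, 95% interval 0.17 to 1.16, adjusted p = 0.086 in limma), and it was 0.40 without DBA F1 replicate 3. Without DBA F1 replicate 1 it was 0.85 and passed (adjusted p = 0.039). The dim probe set (1456605_at) averaged 4.83 ± 0.16 in AKR F1 and 4.49 ± 0.24 in DBA F1 (SD, n = 3 each), below the median of the arrays, with no overlap and adjusted p = 0.17 in limma.

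Cebpg, which encodes a short C/EBP that lacks a transactivation domain and dimerizes with other leucine zipper factors, showed no call at any of its 3 probe sets. The brightest (1425262_at) was at 8.69, 8.68 and 8.52 in AKR F1, against 8.75, 8.74 and 8.62 in DBA F1. The groups overlapped, and the difference of -0.08 had a 95% interval of -0.29 to 0.14. The other 2 differed by 0.04 (1451639_at) and -0.49 (1425261_at, adjusted p = 0.18 in limma), and in both the groups overlapped. In the GRCm38.p6 annotation Cebpg and Cebpa are neighbours on chromosome 7 with 2 annotated genes between them. The interval of Cebpg at its brightest probe set, up to 0.14, lay below that of Cebpa, from 0.49. The difference between the 2 genes was not tested.

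Spi1, which encodes the ETS factor PU.1, was at 9.98, 9.91 and 9.80 in AKR F1, against 9.61, 9.37 and 8.26 in DBA F1 (1418747_at). AKR F1 arrays all lay above DBA F1 arrays, and DBA F1 replicate 3 was more than 1 log2 unit below every other array. The difference of 0.82 (SE 0.30, 95% interval 0.13 to 1.51) did not pass (adjusted p = 0.12 in limma). Without DBA F1 replicate 3 it was 0.41 (adjusted p = 0.067), and without DBA F1 replicate 1 it was 1.08 and passed (adjusted p = 0.048).

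Gfi1, which encodes a zinc finger repressor that holds granulocyte precursors on their path, was at 7.90, 8.21 and 8.21 in AKR F1, against 8.41, 8.67 and 7.76 in DBA F1 (1417679_at). The groups overlapped: DBA F1 replicate 3 was the lowest array and the other DBA F1 arrays were the highest. The difference was -0.17 (SE 0.22, 95% interval -0.67 to 0.32, adjusted p = 0.66 in limma). It was -0.43 without DBA F1 replicate 3 and 0.02 without DBA F1 replicate 2, and it was 0.62 with the hybridization controls and -0.57 with the index as a covariate, none of them past the test.

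**Figure D2:**
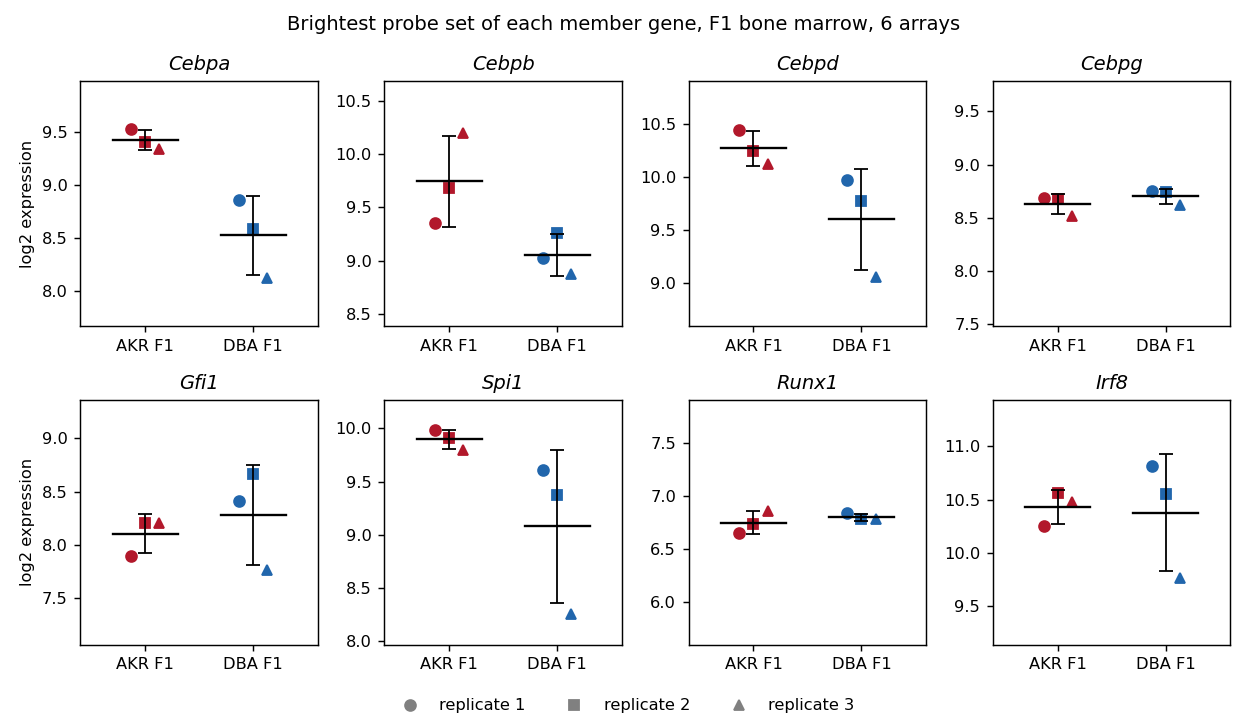
Log2 expression of the brightest probe set of the 8 member genes in each array, AKR F1 left of DBA F1, with the mean as a line and the SD as bars (n = 3 each); every panel spans the same log2 range. Cebpa, Cebpb, Cebpd and Spi1 have all AKR F1 arrays above all DBA F1 arrays, and Cebpg, Gfi1, Runx1 and Irf8 overlap.

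Irf8, which encodes the interferon regulatory factor of the monocyte and dendritic cell path, gave unlike answers at its 2 probe sets, which the annotation ties to the same accession. The brightest (1416714_at) was at 10.25, 10.56 and 10.48 in AKR F1, against 10.82, 10.55 and 9.76 in DBA F1. The other (1448452_at) was at 9.03, 9.15 and 9.13 in AKR F1, against 10.14, 9.79 and 9.52 in DBA F1. In the brightest the AKR F1 arrays lay inside the range of the DBA F1 arrays, and in the other they lay below all of them. The brightest differed by 0.05 (SE 0.24, 95% interval -0.51 to 0.61, adjusted p = 0.92 in limma), and by -0.26 without DBA F1 replicate 3. The other was lower in AKR F1, with a difference of -0.71 (SE 0.15, 95% interval -1.06 to -0.37, adjusted p = 0.021 in limma). The call held when DBA F1 replicate 1 or 3 was left out. Leaving out AKR F1 replicate 1, 2 or 3 or DBA F1 replicate 2 ended it, at differences from -0.68 to -0.74. With the muscle mean as a covariate it was -0.38, with the index -0.80 and with the hybridization controls -0.82. The 6 dendritic cell markers averaged 6.45 to 6.52 in AKR F1 and 6.21 to 6.35 in DBA F1, with 1 higher and none lower. The 1 was Bst2, at 0.74 (adjusted p = 0.0041 in limma), and the other 5 differed by -0.06 to 0.19 without passing. The part of these markers in the Irf8 result was not tested.

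The gap between the Irf8 probe sets, the other minus the brightest, was -1.22, -1.41 and -1.36 in AKR F1 and -0.68, -0.76 and -0.24 in DBA F1. It was wider in every AKR F1 array, by -0.77 on average, with an exact two-sided permutation p of 0.1, the smallest that 3 arrays against 3 allow. It is 1 of 3 such gaps computed, each between probe sets of a gene picked after their values were seen. The 3 exact permutation p-values are equal, so Benjamini-Hochberg adjustment over them leaves 0.1. That adjustment does not account for the picking of the probe sets. The third gap, for Cebpb, the other minus the brightest, was -1.73 ± 0.12 in AKR F1 and -1.95 ± 0.07 in DBA F1 (SD, n = 3 each, exact two-sided permutation p = 0.1). Variants of the parental strains beneath the probes were not analysed here, and a call carried by a single probe set of a gene may not be one of its transcript level.

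Runx1, which encodes the DNA-binding partner of CBFβ in definitive blood formation, had 6 probe sets that pointed in both directions. Probe set 1422864_at was at 6.44, 5.77 and 5.92 in AKR F1, against 6.91, 6.56 and 7.20 in DBA F1. It was lower in AKR F1 with no overlap and a difference of -0.85 (SE 0.21, 95% interval -1.32 to -0.37, adjusted p = 0.035 in limma). Probe set 1422865_at, tied to the same accession, was at 7.08, 5.79 and 6.33 in AKR F1, against 7.32, 6.77 and 7.15 in DBA F1, with overlap, and did not pass (-0.68, adjusted p = 0.18 in limma).

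Of the other Runx1 probe sets, 3 had all AKR F1 arrays above all DBA F1 arrays and none of these passed. Probe set 1452530_a_at was at 6.94, 6.59 and 6.82 in AKR F1, against 6.36, 6.49 and 6.26 in DBA F1, a difference of 0.41 (adjusted p = 0.055 in limma). Probe sets 1452531_at and 1427650_a_at differed by 0.38 (adjusted p = 0.084) and 0.20 (adjusted p = 0.19). The brightest, 1440878_at, overlapped between the groups, with 6.75 ± 0.11 in AKR F1 and 6.80 ± 0.04 in DBA F1 (SD, n = 3 each) and a 95% interval of -0.26 to 0.16.

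**Figure D3:**
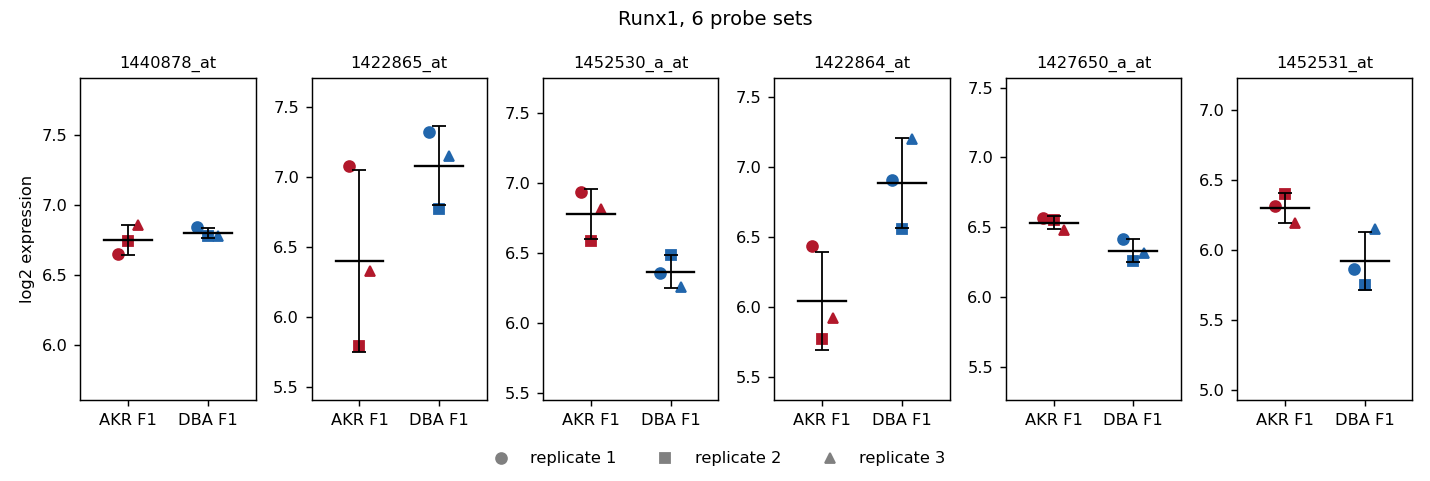
Log2 expression at the 6 Runx1 probe sets in each array, AKR F1 left of DBA F1, with mean and SD (n = 3 each), in order of brightness from left to right. AKR F1 means lie below DBA F1 means at 1422864_at, 1422865_at and, with overlap and a difference of -0.05, at 1440878_at, and 1452530_a_at, 1427650_a_at and 1452531_at have all AKR F1 arrays above all DBA F1 arrays.

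Within AKR F1, replicate 1 was the highest array at 1422864_at, 1422865_at, 1452530_a_at and 1427650_a_at and the lowest at 1440878_at. Its 3' to 5' index was 1.66, against 2.22 and 2.08 in the other AKR F1 arrays. The index separates the groups, so its part in the Runx1 differences cannot be told apart from that of the cross. With the 3' to 5' index as a covariate, 1422864_at differed by -0.16 (SE 0.25) and 1422865_at by 0.48 (SE 0.22), and neither passed. With the hybridization controls 1422864_at differed by -1.72 and with the muscle mean by -0.68, again without passing. In the fit with the index 1452530_a_at differed by 0.65 and 1452531_at by 0.39. The call of 1422864_at ended when AKR F1 replicate 2 or 3, or DBA F1 replicate 1 or 3, was omitted, with differences from -0.69 to -0.84. Without AKR F1 replicate 1, 1422865_at differed by -1.02 and passed (adjusted p = 0.029 in limma). The gap of 1422864_at minus 1452530_a_at was -0.49, -0.82 and -0.89 in AKR F1 and 0.55, 0.07 and 0.95 in DBA F1. The groups did not overlap in this gap (exact two-sided permutation p = 0.1, again the smallest possible).

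The arrays of DBA F1 were not alike in these genes. DBA F1 replicate 3 was the lowest of the 6 arrays for 6 of the 8 genes at their brightest probe set, as it was for 28.7% of all genes. Over all 18 member probe sets it was the lowest at 8 (44.4%), against 22.2% of all probe sets. At Runx1 1422864_at (7.20) and Cebpg 1425261_at (5.91) it was the highest array. Relative to the mean of the 6 arrays it stood at -1.23 for Spi1, -0.87 for Cebpd, -0.84 for Cebpa, -0.64 for Irf8, -0.53 for Cebpb and -0.43 for Gfi1. The mean of 5 granulocyte precursor markers, the primary granule genes Mpo, Elane, Prtn3 and Ctsg with Ms4a3, was 12.34 to 12.52 in AKR F1 and 11.79 to 12.28 in DBA F1, with the lowest value in this array. The mean of 9 neutrophil markers was 12.70 to 12.90 in AKR F1 and 12.59 to 12.88 in DBA F1, also lowest there. Of the 5 precursor markers 1, Elane, passed the test and was higher in AKR F1. Ctsg went the other way, at -0.26, without passing (adjusted p = 0.15 in limma). Of the 9 neutrophil markers 1, Cxcr2, passed and was lower in AKR F1. The part of these measures in the members' differences was not tested. Muscle markers in this array, at 10.06, lay between those of the other DBA F1 arrays (8.97 and 11.77). Without DBA F1 replicate 3, 3 member probe sets passed in place of 4: that of Cebpa, at 0.69 (adjusted p = 0.018 in limma), 1448452_at of Irf8 and 1452531_at of Runx1.

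**Figure D4:**
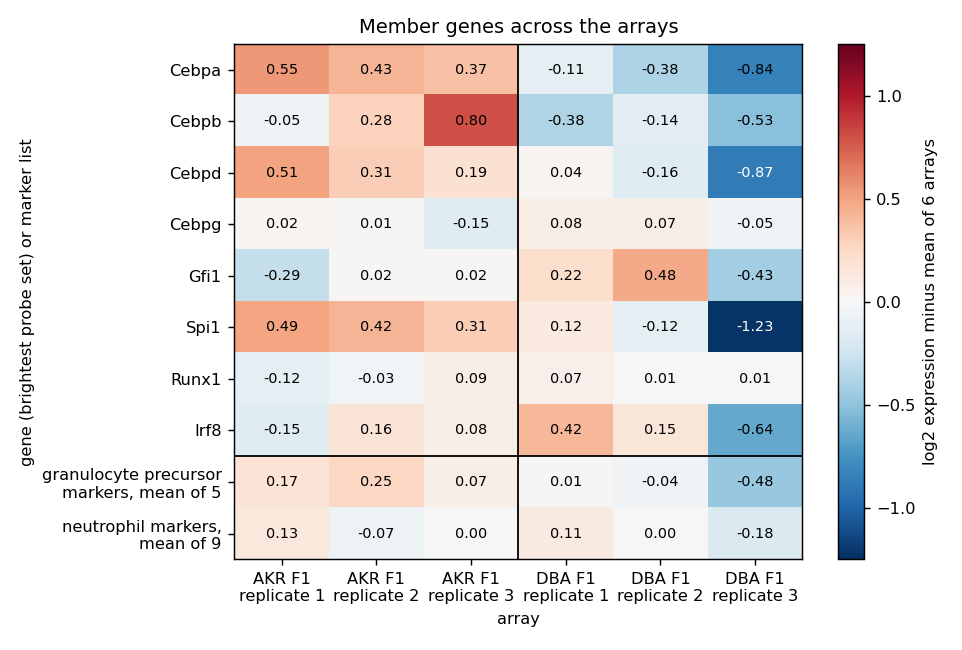
Log2 expression minus the mean of the 6 arrays for the brightest probe set of each member gene and for the means of 5 granulocyte precursor markers and 9 neutrophil markers, AKR F1 arrays left of DBA F1 arrays. DBA F1 replicate 3 holds the lowest value for 6 of the 8 genes and for both marker means.

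Genes around these factors were read from 4 lists, at the brightest probe set of each gene, of which 67 were measured. AKR F1 was higher for 7 of them and lower for 3, and 57 missed the threshold. That is 14.9%, beside 15.2% of all genes (9.20% higher and 6.04% lower), a share near that background. The median difference was 0.10, against 0.06 over all genes.

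Of 10 partners and regulators of C/EBP factors, 0 passed (limma, smallest adjusted p = 0.11) and 3 had an unadjusted p under 0.05, with a median difference of 0.14. The share of all genes with such an unadjusted p was not computed here, so the 3 cannot be set against a background. Batf2, of the family of small leucine zipper factors, differed by 0.31 (adjusted p = 0.11), and Atf5, an activating transcription factor, by 0.33 (adjusted p = 0.13). Trib2, a pseudokinase that leads C/EBPα to degradation, averaged 9.81 ± 0.44 in AKR F1 and 10.28 ± 0.18 in DBA F1 (SD, n = 3 each), with a difference of -0.47 (adjusted p = 0.15 in limma). Nfil3, a leucine zipper repressor, differed by 0.21 (adjusted p = 0.23).

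Among 18 relatives and cofactors of PU.1, RUNX1, GFI1 and IRF8, 3 were higher and 1 was lower, with 14 not past the test and a median of 0.06. Gfi1b, the paralogue of Gfi1 in red cell and platelet precursors, averaged 10.11 ± 0.08 in AKR F1 and 9.48 ± 0.10 in DBA F1 (SD, n = 3 each), 1.55-fold higher (adjusted p = 0.0070 in limma). Leaving out any 1 of the 6 arrays kept the call. Of 7 red cell markers 3 were higher and none lower at their brightest probe set, with means of at least 10.97 in AKR F1 and at most 10.79 in DBA F1. Tfrc, the transferrin receptor gene and 1 of the 7, differed by -0.12 there without passing, and its 2 dimmer probe sets were lower in AKR F1, at -1.43 and -2.16 (adjusted p = 0.016 and 0.012 in limma). The part of red cell markers in the Gfi1b result was not tested. Runx3, a paralogue of Runx1 used in lymphocytes, was higher by 0.56 (adjusted p = 0.021 in limma), and its other probe set differed by 0.02. Of 5 T cell markers 2 were higher and none lower at their brightest probe set. Their means were 6.99 to 7.17 in AKR F1 and 6.76 to 6.81 in DBA F1. Of 4 NK cell markers none was higher and 1, Gzma, was lower, at -0.83 (adjusted p = 0.0035 in limma). The NK cell means in AKR F1 all lay below 6.05, the lowest in DBA F1. Of 7 B cell markers 1 was higher and 2 were lower, with means that overlapped between the groups. The part of these lymphocyte markers in the Runx3 result was not tested. Cbfa2t3, an ETO family corepressor, was higher by 0.47 and Hdac2, a histone deacetylase, was lower, at -0.33 (adjusted p = 0.031 and 0.035 in limma). Each kept its call in 2 of the 6 refits that omit an array. The other 3 probe sets of Cbfa2t3 differed by 0.06 to 0.37, and the other 2 of Hdac2 by -0.54 and -0.38, none past the test.

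Of 17 other transcription factors of the myeloid fate choice, 3 were higher and 1 was lower, with a median of 0.03. Stat3, which carries the signal of the G-CSF receptor, averaged 10.67 ± 0.03 in AKR F1 and 10.00 ± 0.10 in DBA F1 (SD, n = 3 each), 1.59-fold higher (adjusted p = 0.0050 in limma), a call kept in each of the 6 refits. Its other 3 probe sets differed by 0.06 to 0.32 and did not pass. Rara, the retinoic acid receptor α of granulocyte maturation, was 1.79-fold higher (adjusted p = 0.012 in limma) and kept its call in 5 of the 6 refits. Nab2, which binds and represses EGR factors, was higher by 0.76 (adjusted p = 0.030), and Hoxa9, a homeobox factor of progenitors, was lower, at -0.41 (adjusted p = 0.041 in limma). Nab2 and Hoxa9 each kept the call in 1 of the 6 refits, and a second Hoxa9 probe set differed by 0.04.

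Receptor and granule genes of granulocytes, many of them known targets of the C/EBP factors and PU.1, held 1 gene higher, 1 lower and 20 not past the test, with a median of 0.10. Elane, the gene of neutrophil elastase, averaged 13.06 ± 0.10 in AKR F1 and 12.25 ± 0.41 in DBA F1 (SD, n = 3 each), 1.76-fold higher (adjusted p = 0.024 in limma, kept in 2 of the 6 refits). Cxcr2, a chemokine receptor of mature neutrophils, was lower, at -0.49 (adjusted p = 0.046 in limma, kept in 1 of the 6 refits). Chil3, a chitinase-like protein gene of neutrophils and macrophages, differed by -0.31 (adjusted p = 0.058) and Ms4a3, a marker of granulocyte-monocyte progenitors, by 0.26 (adjusted p = 0.12 in limma). Elane and Ms4a3 are also among the 5 granulocyte precursor markers above, and Cxcr2 among the neutrophil markers.

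The listed genes had 53 further, dimmer probe sets. Against 12.3% of all probe sets (5.57% higher and 6.73% lower), 4 of the 53 passed the probe set test, all lower in AKR F1. They were chosen for mention after their values were seen. Trib2 had 1 at -1.35 (adjusted p = 0.0059 in limma) and another at -0.21, not past the test. Atf4, a stress-response partner of C/EBP factors, had 1 at -0.69 (adjusted p = 0.034 in limma). Its brightest probe set differed by 0.08 and its other dimmer one by 0.18, neither past the test. Zeb2, a zinc finger repressor of the monocyte and dendritic cell path, had 2 calls, at -1.29 and -0.74 (adjusted p = 0.029 and 0.013 in limma). Its brightest probe set differed by -0.11 and its other dimmer ones by -0.39 and -0.35, none past the test.

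**Figure D5:**
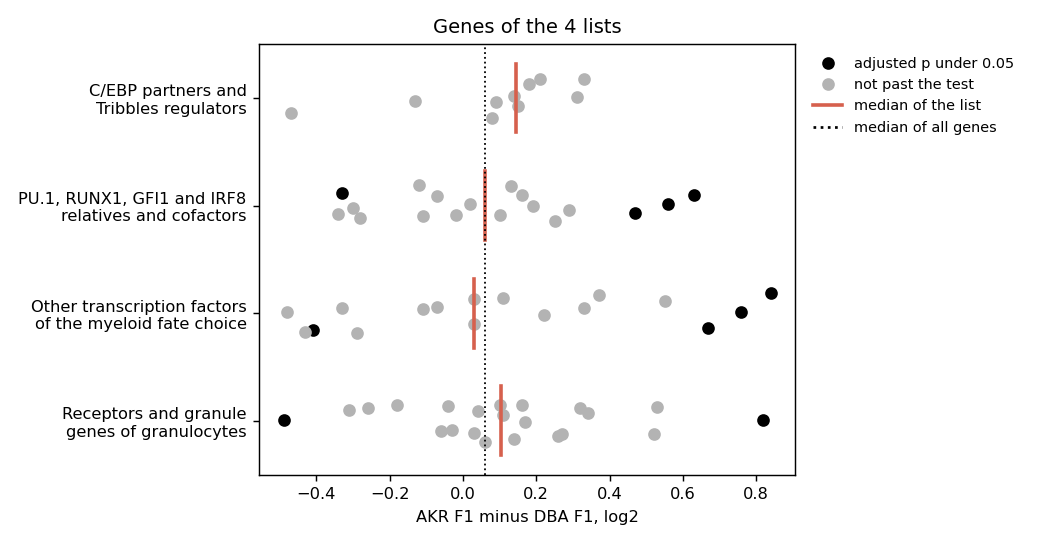
Log2 difference between AKR F1 and DBA F1 (the first minus the second) for the 67 genes of the 4 lists, black where the adjusted p was under 0.05, with the median of each list as a red bar and that of all genes as a dotted line. The lists of relatives and cofactors and of other factors hold 4 calls each, the granulocyte list 2 and the C/EBP partners none.

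The genes whose pattern over the 6 arrays was most like that of Cebpa, among 9096 genes above the median level, were Txnl4b, Zfp385a and Cyba (Pearson r of 0.999, 0.998 and 0.998). Cyba, a subunit gene of the phagocyte NADPH oxidase, was at 12.55, 12.47 and 12.47 in AKR F1, against 12.06, 11.87 and 11.54 in DBA F1. Zfp385a, a zinc finger gene, was at 7.49, 7.42 and 7.24 in AKR F1, against 6.66, 6.34 and 5.78 in DBA F1. In both, as in Cebpa, AKR F1 replicate 1 was the highest array and DBA F1 replicate 3 the lowest. These values are a description: the points share their arrays and the group difference, and 17.1% of the searched genes had r over 0.9.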

How the data were processed

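Bone marrow was snap frozen and total RNA extracted with Trizol, then labelled with biotin by the Affymetrix protocol, per the labels' protocols. The authors deposited 1 table of log2 expression per probe set, with like quartiles on all 6 arrays (lower 3.68 to 3.75, upper 7.34 to 7.43; values 2.26 to 14.88). RMA and MAS5 appear in the submitters' processing notes without a role or version, so the step that made the values is unknown, and no detection calls or scan dates were used here.

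Titles gave groups and replicate numbers. Of 45101 probe sets, 64 controls were removed; of the other 45037, 34945 have 1 gene symbol, 932 several and 9160 none. limma 3.58.1 in R 4.3.3 (4 residual degrees of freedom) tested all probe sets together, and separately the brightest probe set per gene, and scipy 1.17.1 gave the exact permutation tests. The fitting step was tested on simulated data. The members and lists were chosen with earlier results of these data known. Named genes were all members and, from each of the 4 lists of genes around them, those past the test, filled to 4 by smallest p. Trib2, Atf4, Zeb2, Tfrc and Ccr2 were named for dimmer probe sets after their values were seen. Of the cell type markers, Myh4 and S100a8 were named to state presence. Bst2, Gzma, F13a1, Ctsg, C1qa, C1qb and C1qc were named after their values were seen, and other markers past the test were left unnamed. For likeness, the genes with the 3 highest Pearson r were named. The number of arrays limits precision. Alternatives were quantile normalization, median centring, a filter on dim probe sets (5.17), variance settings, array weights, a replicate block, 3 covariates, the mean of probe sets and leaving out each array.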

Additional observations from a re-analysis of the deposited data

How the results depend on the processing

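Of 269 refits of single member probe sets under 15 alternatives, 219 kept their direction and their side of the threshold, 25 lost and 14 gained a call, and 11 changed sign. Those that changed sign were not past the test in either fit: Cebpd 1456605_at (-0.02) and Cebpg 1425262_at (0.01) with the muscle mean as a covariate; Cebpg 1451639_at (-0.12) and Gfi1 (0.62) with the hybridization controls; Runx1 1422865_at (0.48) and Irf8 1416714_at (-0.26) with the 3' to 5' index; Irf8 1416714_at with array weights (-0.03); and, leaving out 1 array, Cebpg 1451639_at (range -0.05 to 0.11), Gfi1 (-0.43 to 0.02) and Irf8 1416714_at (-0.26 to 0.28, and -0.01 without AKR F1 replicate 2). With the index, the hybridization controls or the muscle mean as a covariate, the counts past the test became 53, 10 and 61 probe sets, 3, 1 and 48 genes, 0, 0 and 1 of the listed genes, and 0 each of member probe sets and member genes; these fits have fewer residual degrees of freedom and covariates that separate the groups. Leaving out 1 array gave 1683 to 5581 probe sets, 685 to 3248 genes, 0 to 5 member probe sets, 0 to 3 member genes and 2 to 13 listed genes. The member probe set count was 0 without AKR F1 replicate 2 (limma, with 7 at an unadjusted p under 0.05), 1 without AKR F1 replicate 3 and 2 without DBA F1 replicate 2. The share of all probe sets with such an unadjusted p was not computed here. Member genes past the test were 2 with quantile normalization, with dim probe sets removed or with trended, robust variances, and 3 with array weights or the mean of probe sets. Array weights gave 16 listed genes in place of 10. The replicate block gave 7 member probe sets and 3 member genes in place of 4 and 1, and the counts of all probe sets and genes were 5321 and 2357. Whether the replicate numbers pair the samples is not known. Same-numbered arrays had deviations that correlated at 0.01, -0.06 and 0.07 across genes, and arrays did not each correlate best with their own number. With 3 arrays per group these values cannot decide whether the numbers carry a pairing. For the counts that moved with normalization, filter, weights, variance or block, the cause was not tested.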
